A study of Mus musculus with 12 samples.

Results

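The comparison described here is between CD8+ T cells that carried asialo-GM1 (asGM1) on their surface and CD8+ T cells that did not, both sorted from Panc02 tumours. It takes 6 of the 12 libraries of the study, 3 asGM1-positive and 3 asGM1-negative, chosen by their labels alone, and covers the 20411 genes that passed a filter on low counts out of 56980 in the deposited table. Panc02 is a mouse pancreatic cancer cell line, and the host mice were wild-type C57BL/6J. Cells of both gates were alive by DAPI exclusion and positive for CD45.2 and CD8, and no T cell receptor marker is named in the sort. The other 6 libraries came from Panc02 tumours that expressed Flt3L, a growth factor for dendritic cells, with the same sort and the same gates. They share the estimate of the spread and are quoted only where the gate difference was compared between the tumour types. The age of the mice, the number of animals and the site and time of tumour growth are not stated in the labels. The labels do not say that the replicates were separate mice, so the p-values measure only the spread between these samples, which may be technical.

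AsGM1 is a glycosphingolipid made from the same precursor as the gangliosides but without sialic acid, and antibodies to it are widely used to deplete natural killer cells in mice. Activated CD8+ T cells can carry it too. CD8+ T cells in tumours range from stem-like cells, which keep the transcription factor TCF1 and the receptors for entering lymph nodes, to effector and exhausted cells, which lose both and carry granzymes and inhibitory receptors. KLF2 switches on the gene for S1PR1, the receptor by which a T cell leaves tissue, and its loss goes with residence in tissue.

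The 6 libraries held 101505475 to 102325680 counts each, and values are given as CPM, counts scaled to a common library size after TMM adjustment. Cd8a, which encodes a chain of CD8, read 1812, 2095 and 2324 CPM in replicates 1, 2 and 3 of the asGM1-negative cells, an order kept throughout, and 1673, 1732 and 1957 CPM in those of the asGM1-positive cells. Cd3e, a chain of the T cell receptor complex, stood at 814.5, 837 and 811 CPM and 704, 835 and 947.5 CPM in the same order, so the labelled cell type was present in all 6, and none of 18 T cell identity genes was called. Rank correlations across genes were 0.973 to 0.983 within and 0.968 to 0.978 between the gates, and the leading principal components held 30.7% and 25.9% of the variance. Summed markers of macrophages were 3172, 3279 and 2818 CPM in the asGM1-negative and 5871, 4311 and 2813 CPM in the asGM1-positive libraries, so positive replicates 1 and 2 stood above the rest and replicate 3 did not. Both libraries numbered 1 had the lowest granzyme B transcript (Gzmb) of their gate, 868 and 1724 CPM.

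AsGM1-positive cells differed from asGM1-negative cells mainly by transcripts that were lower in them. The genes for leaving tissue and entering lymph nodes (S1pr1, Ccr7 and Klf2), for the stem-like programme (Tcf7, Lef1 and Slamf6), for the integrin that holds T cells in epithelium (Itgae and Itgb7) and for interleukin 2 (Il2) were all lower in them, with log2 fold changes from -1.18 to -2.72. The few genes that were higher included Fcer1g and Cd244a, both of which encode parts of natural killer receptor systems. Of 24 genes of such receptors and adaptors tested, 2 were higher and 2 lower (Cd7 and Klra6). Without the libraries numbered 1, 0 were higher and 2 lower. None of 13 natural killer cell markers was called. Transcripts of granzymes, perforin, interferon gamma and the inhibitory receptors PD-1, TIM-3 and LAG-3 did not pass the test. Some markers of plasmacytoid dendritic cells (10 of 24), of CD4+ and regulatory T cells (4 of 15) and of gamma delta T cells (6 of 14) were also lower in the asGM1-positive libraries, against 0.843% of all genes tested. The part of such cells in the lower genes named below was not tested.

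In numbers, edgeR's quasi-likelihood test called 182 genes at a Benjamini-Hochberg adjusted p under 0.05, which is 0.892% of the genes tested. Of these, 10 were higher in asGM1-positive cells (0.0490%) and 172 lower (0.843%), and at an unadjusted p under 0.05 there were 2040 genes. The 172 lower genes were 147 named genes, 9 antigen receptor or immunoglobulin segments and 16 gene models without a name. Their median log2 fold change among the 80 with a mean of at least 5 CPM was -1.25. The median over all genes tested was 0.02. In all 182 the values of the 3 asGM1-positive and the 3 asGM1-negative libraries did not overlap. Because the test picked them on these same values, that is no separate support. Over all genes tested the shares without overlap were 8.67% (higher) and 8.92% (lower). Of the lower genes, 23 had no count in any asGM1-positive library, and of the higher genes Gm47088 had none in any asGM1-negative library. For these only levels are given. Leaving out asGM1-positive replicate 3 raised the higher calls to 77, with 149 lower, and leaving out asGM1-positive replicate 2 left 94 calls in all.

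**Figure D1:**
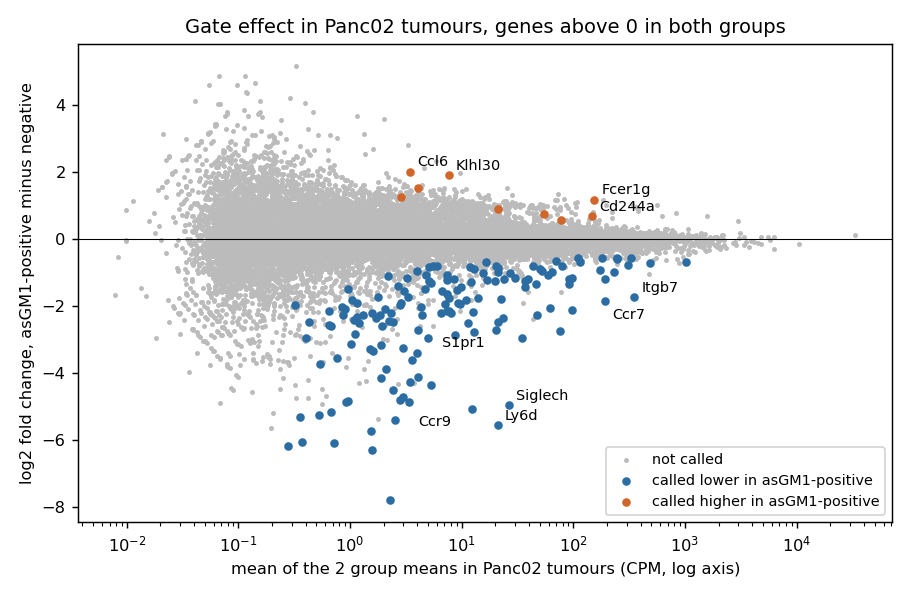
Each point is 1 gene above 0 in both groups, placed by the mean of its 2 group means in CPM (log axis) and by its log2 fold change, asGM1-positive minus asGM1-negative. Blue marks genes called lower, orange genes called higher and grey the rest, and the called genes lie almost wholly below 0.

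Of 15 tested genes for tissue exit and lymph node homing, 4 were lower in asGM1-positive cells and none was higher. Over all genes tested 0.843% were lower and 0.0490% higher, shares to be set beside the count of every list below. The median log2 fold change of these 15 was -0.47, and 3 were called without the libraries numbered 1. S1pr1, the receptor for the sphingosine-1-phosphate gradient that draws T cells out of tissue, had 41.7, 32.4 and 32.3 CPM in the 3 asGM1-negative libraries but 6.29, 4.64 and 5.24 CPM in the 3 asGM1-positive libraries. Its log2 fold change was -2.72 ± 0.22 (adjusted p = 0.000223), and the highest positive library lay far below the lowest negative one. Ccr7, the chemokine receptor that guides T cells into lymph nodes, fell from 301, 272 and 332 CPM to 85.6, 66.9 and 98.9 CPM, a log2 fold change of -1.85 ± 0.21 (adjusted p = 0.00137). The groups did not overlap. Klf2, the transcription factor that drives S1pr1, measured 23.6, 22.2 and 19.5 CPM in the asGM1-negative and 6.67, 6.53 and 6.24 CPM in the asGM1-positive libraries. The log2 fold change was -1.75 ± 0.28 (adjusted p = 0.0102), with almost no spread among the 3 positive values. Klf2 was not called without asGM1-positive replicate 2, nor without both libraries numbered 1.

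Other genes of the same list lay lower without passing the test. Cxcr4, the receptor for the stromal chemokine CXCL12, had 7.56, 5.61 and 4.08 CPM and 2.57, 2.27 and 1.78 CPM in the negative and positive libraries, a log2 difference of -1.38 ± 0.30 (adjusted p = 0.0626). Cd69, whose protein pulls S1PR1 off the surface, differed by -0.47 ± 0.12 (adjusted p = 0.12). In bulk libraries such as these, fewer cells that carry a transcript and less transcript per cell cannot be told apart.

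The starts of 3 of the lower genes and 1 of the higher genes are shown so that the regulatory letters around them can be read beside the values. Each runs from 250 bases before to 50 bases after the gene's start, 5′ to 3′ on the gene's strand, from RefSeq on GRCm38.p6, another build than the mm39 of the submitters' processing notes. Of 9 genes looked for, 5 matched that table, and not all of the 5 are shown. The windows shown are Klf2 at chr8:72318812-72319111 (plus strand), Itgb7 at chr15:102231886-102232185 (minus strand), Lef1 at chr3:131110047-131110346 (plus strand) and Fcer1g at chr1:171234300-171234599 (minus strand). Capitals mark exact matches on either strand to letters known from 4 families of T cell transcription factors. These are CCACCC for the KLF family, CTTTGA for TCF and LEF factors, TGTGGT for RUNX factors and CCGGAAG for ETS factors.
Klf2 promoter: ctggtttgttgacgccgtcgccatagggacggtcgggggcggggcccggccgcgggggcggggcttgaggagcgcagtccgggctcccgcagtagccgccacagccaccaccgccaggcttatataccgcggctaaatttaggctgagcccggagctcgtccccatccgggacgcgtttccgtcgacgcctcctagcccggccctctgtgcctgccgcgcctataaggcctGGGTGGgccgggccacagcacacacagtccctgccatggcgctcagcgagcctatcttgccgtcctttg
Itgb7 promoter: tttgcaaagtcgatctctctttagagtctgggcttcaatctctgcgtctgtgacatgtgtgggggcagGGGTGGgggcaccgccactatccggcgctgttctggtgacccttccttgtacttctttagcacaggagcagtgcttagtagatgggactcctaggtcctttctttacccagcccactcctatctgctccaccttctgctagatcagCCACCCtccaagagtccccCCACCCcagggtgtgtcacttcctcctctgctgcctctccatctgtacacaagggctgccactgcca
Lef1 promoter: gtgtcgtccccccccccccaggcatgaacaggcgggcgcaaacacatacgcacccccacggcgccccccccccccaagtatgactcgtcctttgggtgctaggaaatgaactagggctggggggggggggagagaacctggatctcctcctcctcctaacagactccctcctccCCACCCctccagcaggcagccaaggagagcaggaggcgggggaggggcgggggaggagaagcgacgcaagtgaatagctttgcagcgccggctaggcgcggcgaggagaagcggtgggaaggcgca
Fcer1g promoter: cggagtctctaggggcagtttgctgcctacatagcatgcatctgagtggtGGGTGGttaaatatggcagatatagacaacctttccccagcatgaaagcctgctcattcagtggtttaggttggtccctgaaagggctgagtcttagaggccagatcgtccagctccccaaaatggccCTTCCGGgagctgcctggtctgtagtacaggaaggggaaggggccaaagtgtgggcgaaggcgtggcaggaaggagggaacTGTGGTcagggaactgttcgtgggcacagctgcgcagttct
The Itgb7 window held 3 matches to CCACCC, and the Klf2 and Lef1 windows held 1 each. The Fcer1g window held 1 match each to the KLF, RUNX and ETS letters, and no match overlapped another. CCACCC occurred in 30.9% of all 27025 promoters of the same length, in 36.7% of the 12155 promoters of tested genes and in 47.3% of the 112 matched promoters of genes called lower. The shares for CTTTGA were 16.2%, 12.7% and 23.2%, and those for TGTGGT 16.9%, 13.5% and 15.2%. CCGGAAG was in 9.12% of all, 16.8% of tested and 1.79% (2 of 112) of lower-gene promoters. A match is a run of letters and no evidence of binding, and no test was made of these shares.

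The stem-like transcription factors moved in part. Of 15 tested, 2 were called lower, against 0.843% of all genes tested, none higher, and the median log2 fold change was -0.18. Tcf7, which encodes TCF1, the factor that marks stem-like CD8+ T cells, measured 117, 98.2 and 81 CPM without asGM1 and 27.2, 19.8 and 24.6 CPM with it, and the groups did not overlap. Its log2 fold change was -2.05 ± 0.24 (adjusted p = 0.00148). Lef1, its partner in the same family, had 27.3, 37.1 and 34.2 CPM and 12.5, 13.6 and 17.5 CPM, a log2 fold change of -1.18 ± 0.17 (adjusted p = 0.0062). Bach2, a repressor of effector genes, was not called at a log2 difference of -0.87 ± 0.24, nor were Id3 at -1.02 ± 0.30 and Foxo1, an activator of Klf2, at -0.39 ± 0.15.

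Of 20 surface genes of naive and memory precursor cells, 8 were lower and none higher, with a median of -0.82. Of all genes tested 0.843% were lower. Without the libraries numbered 1, 4 of these 20 and 3 of the 15 stem-like transcription factors were called. Slamf6, the receptor used to sort progenitor exhausted T cells, read 62.9, 59.1 and 76.1 CPM without and 27.2, 24 and 26.4 CPM with asGM1, a log2 fold change of -1.35 ± 0.22 (adjusted p = 0.0122). Nsg2 stood at 17, 14.8 and 13.8 CPM and 4.07, 3.05 and 4.66 CPM (-1.95 ± 0.26, adjusted p = 0.00381). For Tnfsf8, the ligand of CD30, the values were 39.4, 30.8 and 33.2 CPM and 13.4, 7.14 and 9.64 CPM (-1.78 ± 0.20, adjusted p = 0.0013). All 3 had every positive library below every negative one. Treml2, a receptor of the TREM family, was called at -2.14 ± 0.34. Among the 20 lower genes with the largest change were also Trat1, an adaptor of the T cell receptor complex, at 16.3, 13 and 10.3 CPM against 4, 1.78 and 2.83 CPM (-2.20 ± 0.27), and Bace2, an aspartyl protease, at 33.1, 41.1 and 32.6 CPM against 5.92, 8.27 and 5.09 CPM (-2.47 ± 0.33). Il7r, through which T cells receive interleukin 7, had 52.5, 63.1 and 63.1 CPM against 26.4, 38.6 and 42.9 CPM, without overlap, and missed the threshold at an adjusted p of 0.0873.

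**Figure D2:**
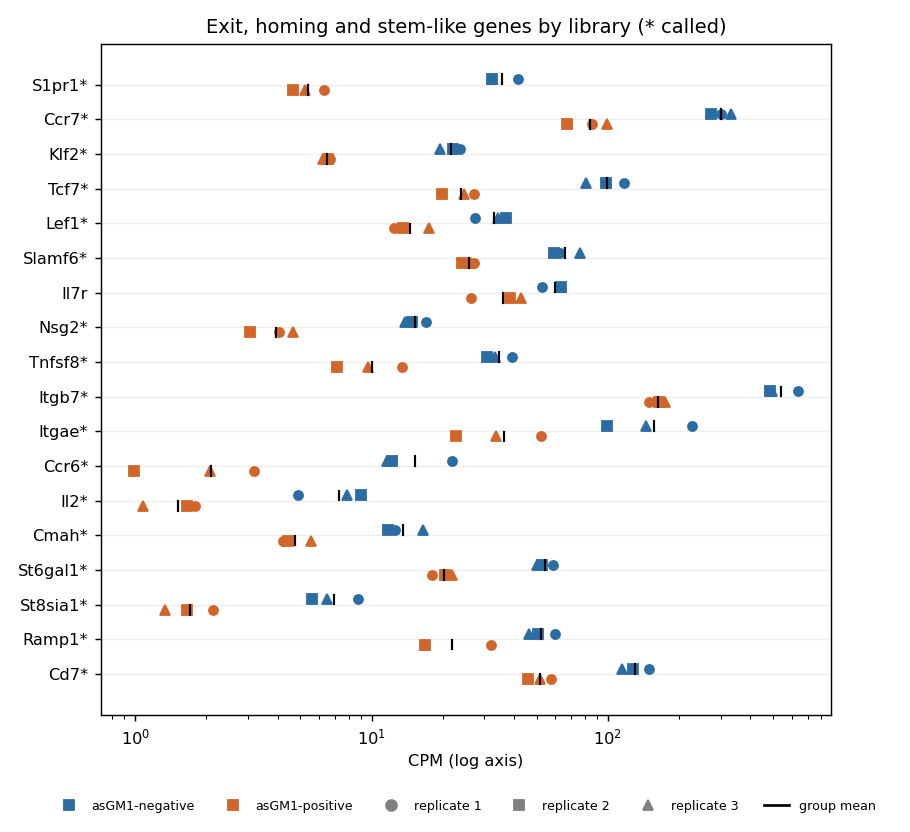
CPM (log axis) of exit, homing and stem-like genes and others named in the text, with 1 point per library and a bar at the group mean, and a star on genes called. For each gene shown, Il7r without a call included, all 3 asGM1-positive libraries (orange) lie below all 3 asGM1-negative ones (blue), as for S1pr1 with at most 6.29 CPM against at least 32.3 CPM.

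Among 23 tested integrin and adhesion genes 3 were lower, against 0.843% of all genes tested, with a median of -0.16. Itgae and Itgb7 encode the alpha E and beta 7 chains, which pair into the receptor for E-cadherin on epithelial cells. Itgb7 had 636, 484 and 496.5 CPM in the asGM1-negative libraries and 149.6, 165 and 175 CPM in the asGM1-positive ones, a log2 fold change of -1.73 ± 0.15 (adjusted p = 0.000237) with tight groups. Itgae had 227, 99.3 and 145 CPM and 52, 22.9 and 33.6 CPM, a log2 fold change of -2.12 ± 0.34 (adjusted p = 0.0115). Its replicates spread over 2-fold in each gate, with replicate 1 the highest in both. Adgre5, which encodes the adhesion receptor CD97, was lower by a smaller step, from 394, 355 and 428 CPM to 203, 193 and 294 CPM (-0.77 ± 0.15, adjusted p = 0.0335). Itga1, the collagen-binding integrin chain of resident T cells, lay the other way at 56.5, 74.2 and 76.8 CPM against 99.6, 129 and 134 CPM, without overlap, and did not pass the test (0.81 ± 0.20, adjusted p = 0.118).

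Of 16 chemokine receptors tested, 5 were lower, against 0.843% of all genes tested, and none higher, with a median of -0.43. Without the libraries numbered 1, 2 were called. Ccr6, the receptor for CCL20, stood at 21.9, 12.2 and 11.7 CPM in the asGM1-negative and 3.19, 0.988 and 2.07 CPM in the asGM1-positive libraries (-2.87 ± 0.43, adjusted p = 0.00707). Ccr4 and Ccr10, both known for homing to skin, were called at -3.33 ± 0.53 and -3.14 ± 0.51. Ccr8, named after its values were seen, was the most abundant of those called, at 293, 277 and 326 CPM against 185, 177 and 232 CPM (-0.59 ± 0.12, adjusted p = 0.04). The fifth, Ccr9, is also a marker of plasmacytoid dendritic cells and is given with them. Cxcr6 and Cxcr3, receptors for inflamed tissue, did not pass the test. Cxcr6, which binds CXCL16, had 1700, 2126 and 2196 CPM and 1906, 1891 and 2096 CPM, with overlapping groups, and Cxcr3 differed by -0.53 ± 0.18.

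Several signals to other cells were lower. Il2, the T cell growth factor, had 4.9, 8.98 and 7.9 CPM without asGM1 and 1.79, 1.66 and 1.08 CPM with it, a log2 fold change of -2.26 ± 0.32 (adjusted p = 0.00506). Il21, the helper cytokine for B cells and CD8+ T cells, was found at 0.223, 0.568 and 0.192 CPM in the asGM1-negative libraries and at 0 in every asGM1-positive one, where a count of 0 allows up to 0.079 CPM. Tnfsf11, which encodes RANKL, stood at 58.6, 65.6 and 71.1 CPM and 31.8, 35.3 and 37.8 CPM (-0.90 ± 0.12, adjusted p = 0.00387). Tnfsf14, which encodes LIGHT, was called at -0.97 ± 0.19. Together these made up the 4 lower genes among 23 cytokines tested (median -0.54), of which 2 were called without the libraries numbered 1. Of all genes tested 0.843% were lower. Ifng, the effector cytokine of CD8+ T cells, spread widely inside each gate, at 206, 453.5 and 383 CPM and 280.1, 553 and 357 CPM, and was not called (0.19 ± 0.37, adjusted p = 0.956).

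Ligands of the tumour necrosis factor family made a larger group, chosen after their values were seen. Of 17 tested, 5 were lower, against 0.843% of all genes tested, and none higher, with a median of -0.26. Besides Tnfsf8, Tnfsf11 and Tnfsf14 these were Tnfsf4, which encodes OX40 ligand, and Cd40lg, the helper signal to antigen-presenting cells. Tnfsf4 read 18.6, 12.9 and 11.9 CPM without asGM1 and 3.92, 3.7 and 4.05 CPM with asGM1 (-1.90 ± 0.21, adjusted p = 0.0013), and Cd40lg 12.8, 9.52 and 13.4 CPM and 5.07, 4.2 and 6.28 CPM (-1.20 ± 0.22, adjusted p = 0.023). In both, the positive values fell well clear of the negative ones. Of 18 costimulatory genes 3 were lower (median -0.35), namely Cd40lg, Tnfrsf25, the receptor DR3, at -2.96 ± 0.42, and Slamf1 at 53.1, 49.7 and 61.4 CPM against 31.7, 30.1 and 33.1 CPM (-0.79 ± 0.11, adjusted p = 0.00588). Of the 18, 1 was called without the libraries numbered 1. Of 23 cytokine receptor genes, Il23r (-4.85 ± 0.96) and Il27ra (-0.55 ± 0.09) were lower, with a median of -0.17, and neither was called without the libraries numbered 1.

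Receptors for neuropeptides were a smaller set, also chosen after their values were seen. Of 6 tested, 3 were lower and none higher, with a median of -0.74, and 0.843% of all genes tested were lower. Ramp1, the subunit that turns the calcitonin-like receptor into the receptor for CGRP, had 59.8, 50.6 and 46.5 CPM against 32.1, 16.8 and 16.8 CPM (-1.26 ± 0.24, adjusted p = 0.0341). Ramp3, a related subunit, was called at -1.54 ± 0.27, and Vipr1, a receptor for vasoactive intestinal peptide, at -1.74 ± 0.30. Ramp2 (1.85 ± 0.94) and Vipr2 (0.36 ± 0.28) lay the other way with overlapping groups and were not called. Calcrl, which encodes the receptor that both subunits serve, was not called at 1.48, 1.71 and 1.59 CPM and 1.96, 1.27 and 0.901 CPM, with overlapping groups.

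Enzymes of glycosphingolipids, those that make asGM1 among them, were tested as 22 genes, of which 1 was lower and none higher (median -0.08). B4galnt1, the transferase for the step that yields asialo-GM2 and the gangliosides GM2 and GD2, was abundant in both gates at 1133, 1199 and 1220 CPM and 883, 894 and 1067 CPM and was not called (-0.32 ± 0.12, adjusted p = 0.387). B3galt4, which adds the last galactose of asGM1 and of GM1, stood at 15.1, 14.6 and 18.8 CPM and 12.2, 13.4 and 17.5 CPM, and was not called (-0.17 ± 0.16). St3gal5, which adds the sialic acid that commits lactosylceramide to gangliosides, had overlapping groups at 20.1, 10.1 and 10.1 CPM and 43.1, 22.5 and 12.3 CPM. St8sia1, the GD3 synthase, was the gene called, with 8.77, 5.59 and 6.51 CPM in cells without asGM1 and 2.13, 1.65 and 1.34 CPM in cells with it (-2.02 ± 0.26, adjusted p = 0.00304). Among 20 sialic acid enzymes chosen after their values were seen, 3 were lower (median -0.18), against 0.843% of all genes tested. Besides St8sia1 these were St6gal1, which caps N-linked glycans with sialic acid, and Cmah, which converts the common sialic acid to its glycolyl form. St6gal1 stood at 58.6, 52.8 and 50.3 CPM and 18.1, 20.4 and 22 CPM (-1.42 ± 0.18, adjusted p = 0.00259), and Cmah at 12.5, 11.8 and 16.4 CPM and 4.23, 4.44 and 5.52 CPM (-1.52 ± 0.19, adjusted p = 0.00259). Neither had overlapping groups.

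Of the 10 higher genes, 2 belong to natural killer receptor systems. Fcer1g, the signalling chain shared by Fc receptors and natural killer receptors, had 83.4, 111 and 90.2 CPM in the asGM1-negative and 240.0, 201 and 201 CPM in the asGM1-positive cells. The log2 fold change was 1.18 ± 0.16 (adjusted p = 0.00387). Myeloid cells carry this gene too, and macrophage markers were high in asGM1-positive replicates 1 and 2. In asGM1-positive replicate 3 the macrophage sum was 2813 CPM and Fcer1g 201 CPM. Without that library the log2 fold change of Fcer1g was 1.21, in a fit that kept the 2 positive libraries with high macrophage sums. The part of myeloid cells in the difference was not tested. Without both libraries numbered 1 its adjusted p was 0.055. Cd244a, which encodes the natural killer receptor 2B4 also found on exhausted CD8+ T cells, read 108, 113 and 117 CPM and 171, 183 and 191.5 CPM, a log2 fold change of 0.69 ± 0.12 (adjusted p = 0.0174) with closely grouped values.

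Klhl30, a gene of the kelch family, had the smallest adjusted p of the 10 and rose from 2.51, 4.13 and 3 CPM to 9.98, 13.3 and 12.8 CPM (1.91 ± 0.21, adjusted p = 0.00113). Glmn, which encodes an inhibitor of cullin ubiquitin ligases, rose from 12.7, 16.1 and 15.7 CPM to 27.8, 28.6 and 26.5 CPM (0.90 ± 0.16, adjusted p = 0.0198). Lrrk1, a kinase, had 43.4, 41 and 38.3 CPM and 65.7, 70.6 and 69 CPM (0.74 ± 0.14, adjusted p = 0.0313). Bspry, which encodes a protein with a B-box, stood at 56.7, 64.3 and 66.3 CPM and 87.6, 84.7 and 105 CPM (0.57 ± 0.10, adjusted p = 0.0253). The other 3 named genes were low in all libraries. Ccl6, a chemokine of myeloid cells, had 1.35, 1.39 and 1.32 CPM and 5.84, 6.64 and 3.99 CPM, Slc16a10, an amino acid transporter, 2.1, 1.82 and 2.42 CPM and 6.25, 6.91 and 4.98 CPM, and Cfap126, a protein of cilia, 1.66, 1.56 and 1.87 CPM and 5.02, 4.02 and 3.06 CPM.

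**Figure D3:**
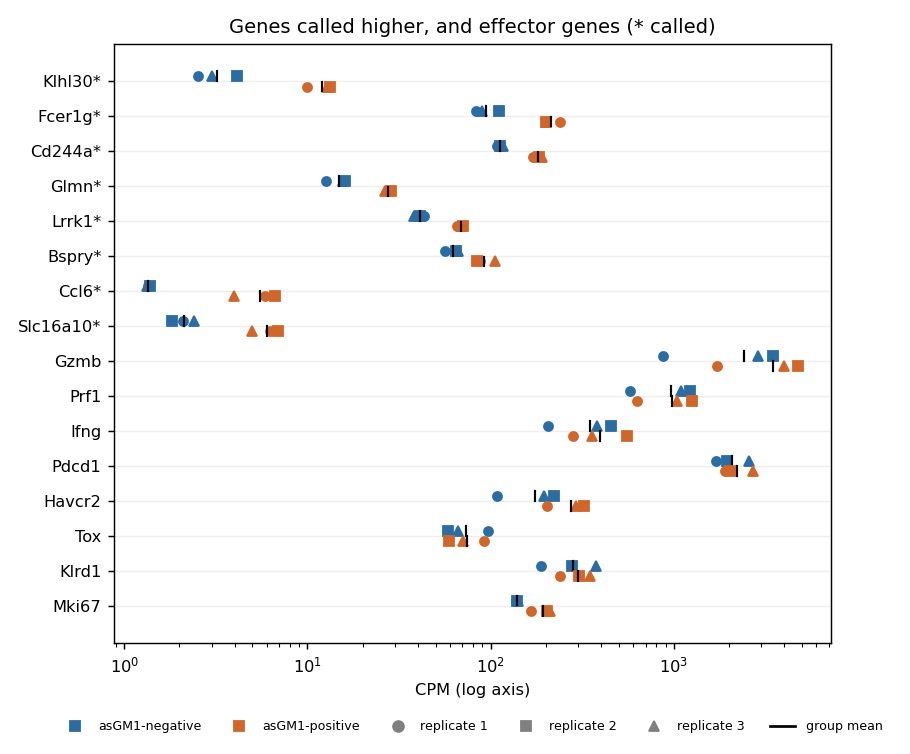
CPM (log axis) of 8 genes called higher in asGM1-positive cells (starred) and of 8 effector and cycling genes that were not called, with 1 point per library, its shape giving the replicate, and a bar at the group mean. Fcer1g reaches 240.0, 201 and 201 CPM in the 3 asGM1-positive libraries (orange), all above the asGM1-negative maximum of 111 CPM (blue).

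Of 24 natural killer type receptors and adaptors tested, 2 were higher (Fcer1g and Cd244a) and 2 lower, with a median of 0.15. Without the libraries numbered 1, 0 were higher and 2 lower, with adjusted p of 0.055 for Fcer1g and 0.134 for Cd244a. Cd7, an immunoglobulin family receptor of T and natural killer cells, was lower at 149, 127 and 115 CPM against 57.4, 46 and 51.5 CPM (-1.34 ± 0.16, adjusted p = 0.00164), as was Klra6, a Ly49 receptor with close paralogs, at 5.96, 6.86 and 7.98 CPM against 2.48, 2.46 and 2.44 CPM (-1.49 ± 0.17, adjusted p = 0.00164). Klrk1, which encodes NKG2D, and Klrd1, which encodes CD94, differed by 0.19 ± 0.18 and 0.08 ± 0.26 and were not called. Tyrobp, the other adaptor chain of natural killer receptors, had overlapping groups at 59.4, 54.3 and 46.9 CPM and 72.8, 45.7 and 30.8 CPM. None of 13 natural killer cell markers was called.

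None of 24 cytotoxic genes was called, and their median was -0.03. Gzmb stood at 868, 3496 and 2880 CPM in the asGM1-negative and 1724, 4780 and 3974 CPM in the asGM1-positive libraries, and Gzma at 16.4, 54 and 80.9 CPM and 31.3, 132 and 183 CPM. For both, the difference between replicate 1 and the others within a gate was larger, as a ratio, than that between the gate means. Both were also higher in the asGM1-positive library of each replicate number. In the edgeR fit with a block for the replicate number Gzmb differed by 0.63 ± 0.15 and was not called (adjusted p = 0.112). That fit called 1 of the 24 cytotoxic genes higher and 1 lower, against 21 and 227 of all genes tested. Prf1, which encodes perforin, differed by 0.02 ± 0.38. Of 19 checkpoint genes only Btla was called, and only with the libraries numbered 1 included, at 21.2, 13.8 and 15.8 CPM against 6.83, 8.23 and 5.99 CPM (-1.27 ± 0.19, adjusted p = 0.00638). Its protein is an inhibitory receptor carried by naive and stem-like T cells. Pdcd1, the gene for PD-1, had 1689, 1946 and 2567 CPM and 1908, 2016 and 2694 CPM (0.09 ± 0.18), and Havcr2, the gene for TIM-3, 108, 221 and 196 CPM and 202.5, 323 and 293 CPM (0.64 ± 0.31), both with overlapping groups. Lag3 and Tox, a receptor and a transcription factor of exhaustion, differed by -0.30 ± 0.23 and 0.01 ± 0.28. Among 22 effector transcription factors 1 was called lower and none higher, and none of 19 AP-1 and early response genes was.

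Cell cycle genes lay slightly higher without passing the test. Of 40 tested, 37 had a positive log2 difference and 22 had no overlap in that direction, against 8.67% of all genes, with a median of 0.20. Mki67, the proliferation marker, stood at 138, 138 and 141 CPM and 166.5, 202 and 212 CPM (0.48 ± 0.15, adjusted p = 0.226). Ccnd2, a D-type cyclin, was the 1 gene called, and it was lower, at 605.5, 594 and 629 CPM against 357, 359 and 395 CPM (-0.72 ± 0.11, adjusted p = 0.00867). Interferon-induced genes lay slightly lower, with 35 of 44 negative, a median of -0.22 and none called. Of the 44, 16 had no overlap in that direction, against 8.92% of all genes. Among all 20411 genes tested, 10717 had a positive and 9355 a negative log2 difference. Within the interferon-induced GTPases, 17 genes chosen after their values were seen, 2 were lower, against 0.843% of all genes tested. Tgtp1 (-1.19 ± 0.18) and Tgtp2 (-0.98 ± 0.14) are near-identical neighbours, and how reads were divided between them is uncertain. Ribosomal protein, glycolysis and heat shock genes had medians of -0.07, 0.06 and 0.08.

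**Figure D4:**
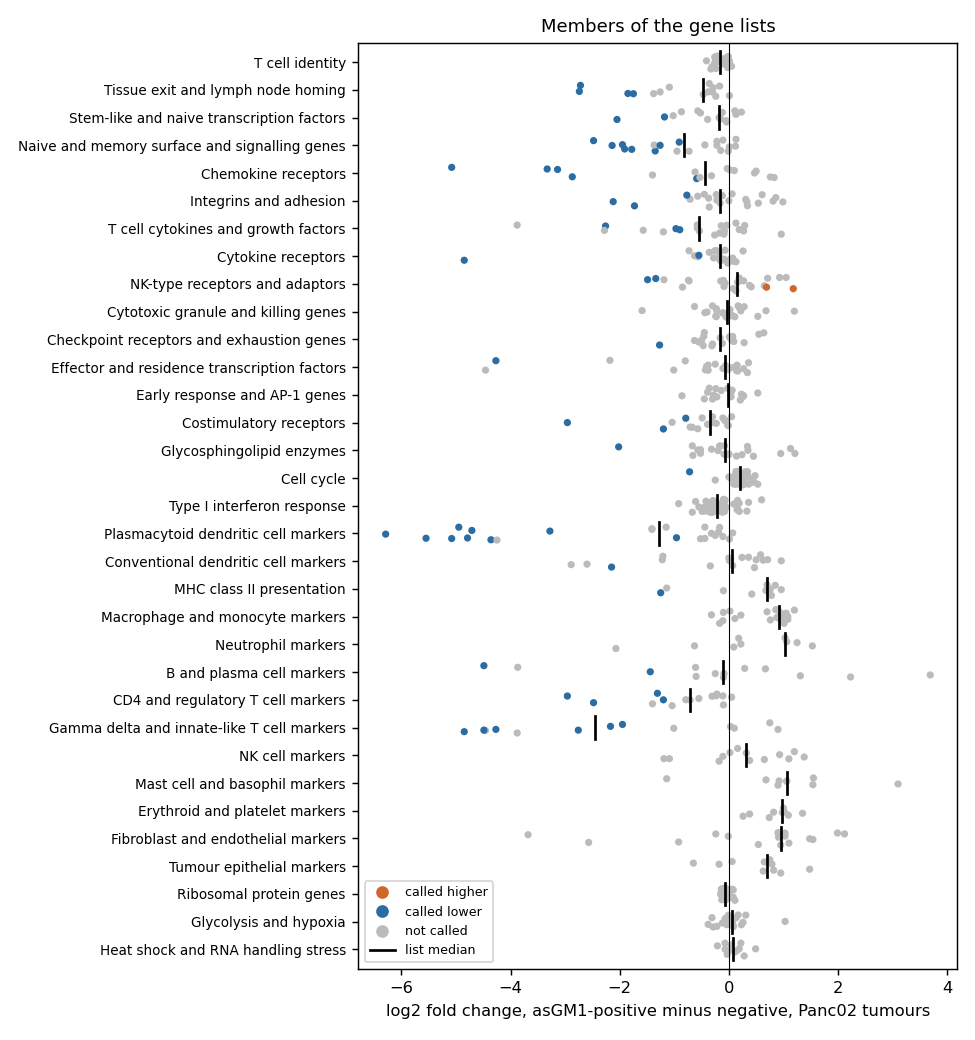
Log2 fold change, asGM1-positive minus asGM1-negative, of the members of each gene list (points) with the list's median (bar), to be read beside the median of all genes tested, 0.02. Members at 0 in a whole group are left off the plot but are in the median. The lowest medians are those of gamma delta T cell (-2.46) and plasmacytoid dendritic cell (-1.28) markers.

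Markers of other cell types followed several different patterns, and beyond CD45.2 and CD8 the sort named no marker that would exclude these cells. Among 24 plasmacytoid dendritic cell markers 10 were lower, against 0.843% of all genes tested, and none higher, with a median of -1.28. The list summed to 1184, 1276 and 1227 CPM in the asGM1-negative and 879, 980.1 and 997 CPM in the asGM1-positive libraries. Siglech, their defining lectin, had 70.1, 40.4 and 43 CPM in the asGM1-negative and 1.75, 3.1 and 0.0901 CPM in the asGM1-positive libraries (-4.95 ± 0.76, adjusted p = 0.00862, and 0.0917 in a fit of the 6 Panc02 libraries alone), and Ly6d had 47, 40.5 and 35.5 CPM and 1.32, 1.01 and 0.29 CPM (-5.55 ± 0.46). Cd209d was at 1.95, 1.35 and 1.93 CPM and then at 0 in all 3. Ccr9, Klk1, Upb1, Cox6a2, Cd300c, Pacsin1 and Spib were the others called, Upb1 at -3.28 ± 0.30.

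CD4+ and regulatory T cell markers gave 4 lower genes of 15 (2 without the libraries numbered 1), with a median of -0.71 and sums of 3653, 4291 and 4846 CPM against 2992, 3136 and 3519 CPM. Foxp3, the factor that defines regulatory T cells, stood at 64.2, 48.5 and 72.7 CPM without and 11.6, 6.92 and 5.29 CPM with asGM1 (-2.96 ± 0.31, adjusted p = 0.00102). Cd4 had 8.36, 8.37 and 6.06 CPM and 3.13, 2.78 and 3.25 CPM (-1.31 ± 0.17, adjusted p = 0.00381), far under Cd8a in every library. The remaining members called were Cxcr5 and Cd40lg. Gamma delta and type 17 T cell markers gave 6 lower of 14 (3 without the libraries numbered 1), with a median of -2.46 and overlapping sums of 181, 163 and 128 CPM and 168, 139.8 and 147 CPM. Trgc1, a constant segment of the gamma chain, had 21.1, 23.2 and 17 CPM and 5, 4.17 and 4.45 CPM (-2.17 ± 0.21, adjusted p = 0.000501), and Scart2, Blk, Il23r and Trgc4 were among the others. Trgc2, named after its values were seen, lay the other way at 80.2, 80.4 and 71.7 CPM against 144, 124 and 123 CPM and was not called (0.75 ± 0.17, adjusted p = 0.0798), and how reads were split among these near-identical segments is uncertain. Trdc, the delta chain constant segment, was 4.89, 4.12 and 5.41 CPM and 1.09, 1.05 and 13.3 CPM, low in asGM1-positive replicates 1 and 2 and highest of all in replicate 3.

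Myeloid and stromal markers were not called but were uneven. None of 24 macrophage and monocyte markers passed the test, with a median of 0.92. Lyz2, the lysozyme of myeloid cells, stood at 291, 214 and 147 CPM and 796.5, 399 and 159 CPM, and H2-Aa, an MHC class II chain, at 314, 275 and 218 CPM and 719.5, 519 and 212 CPM. Both were high in asGM1-positive replicates 1 and 2 and not in replicate 3. Of 17 fibroblast and endothelial markers none was called (1 without the libraries numbered 1), and they summed to 353, 328 and 293.5 CPM and 666, 561 and 262 CPM in the same order. Their part in the genes called higher was not tested. Of 13 B cell markers, Blk and Cd79b were lower (1 of them without the libraries numbered 1), the latter at 15.8, 14.8 and 12.3 CPM against 5.59, 5.04 and 5.14 CPM, and of 18 conventional dendritic cell markers only Clec10a was (-2.15 ± 0.20). Of the 172 lower genes, 23 were in a list of another cell type, and leaving all genes of those lists uncounted left 159 calls, 10 higher and 149 lower. None of the 10 higher genes was in those lists, so their number could not change. The lists are short, and lower genes outside them include Rnase6, a ribonuclease of myeloid and dendritic cells. The count therefore does not measure the part of other cells, which was not tested.

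**Figure D5:**
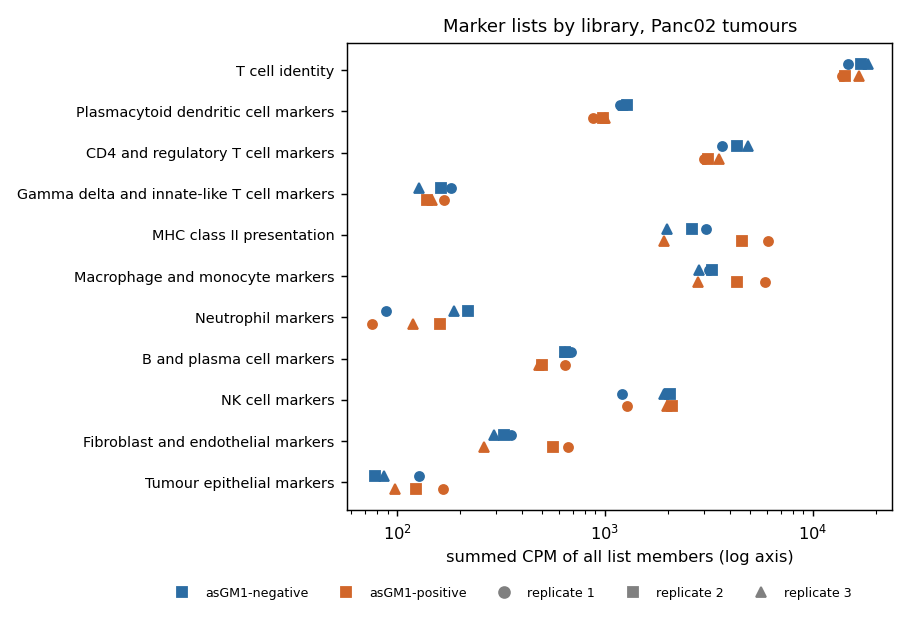
Summed CPM (log axis) of the marker lists of T cells and of other cell types in the 6 Panc02 libraries, 1 point per library. Macrophage sums were 3172, 3279 and 2818 CPM without asGM1 and 5871, 4311 and 2813 CPM with it, in the order of replicates 1, 2 and 3.

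The gate difference in Panc02 tumours was set beside that in Flt3L Panc02 tumours, which were measured on separate libraries. Among the 182 calls of the Panc02 comparison, 176 had a log2 fold change of like sign in the other tumours. The share of like signs over all genes tested was not counted. Some of the 176 lay near 0 there, as did Adgre5 (-0.11 ± 0.15), Slamf1 (-0.13 ± 0.11) and Il27ra (-0.15 ± 0.09). The interaction, which tests the difference between the gate effects, was called for 7 of the 182 and for 75 genes (0.367%) in all. S1pr1 had log2 fold changes of -2.72 ± 0.22 in Panc02 and -2.52 ± 0.22 in Flt3L Panc02 tumours (interaction adjusted p = 0.794). For Tcf7 they were -2.05 ± 0.24 and -1.58 ± 0.23 (interaction adjusted p = 0.524), and for Itgb7 -1.73 ± 0.15 and -1.57 ± 0.15 (interaction adjusted p = 0.747). None of these 3 differences passed the test, which does not show that the effects were equal. Fcer1g, higher by 1.18 ± 0.16 here, had 0.18 ± 0.15 in the Flt3L Panc02 tumours, and that difference missed the threshold (interaction adjusted p = 0.0824). Rnase6, a ribonuclease of myeloid and dendritic cells, was lower in both, at -2.51 ± 0.27 here and -4.91 ± 0.30 there, with a called interaction (adjusted p = 0.0238). Upb1 had -3.28 ± 0.30 and -5.65 ± 0.33 (interaction adjusted p = 0.0334). The number of interaction calls ranged from 1 to 257 when single libraries were left out.

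Leaving out 1 Panc02 library at a time changed the side of the threshold for some named genes, each with the same sign. Without asGM1-negative replicate 1 the calls lost were those of Trgc4, Klk1, Cxcr5, Il27ra, Scart2, Lrrk1, Cd244a, Cd40lg, Glmn, Il23r, Adgre5, Bspry and Tnfsf14, with adjusted p from 0.0626 (Trgc4) to 0.139 (Tnfsf14). The fit that left out asGM1-negative replicate 2 did not call Il21, Tnfsf14, Scart2, Glmn, Adgre5, Il27ra, Cxcr5, Trgc4, Cd244a, Bspry, Il23r and Lrrk1, with adjusted p from 0.052 (Il21) to 0.118 (Lrrk1). For asGM1-negative replicate 3 left out the list was Slamf6, Klk1, Cd244a, Bspry, Glmn, Il23r, Il27ra, Cd40lg, Adgre5, Lrrk1 and Tnfsf14, with adjusted p from 0.0545 (Slamf6) to 0.155 (Tnfsf14). Without asGM1-positive replicate 1 the calls lost were those of Il23r, Glmn, Lrrk1, Klk1, Cxcr5, Cd40lg, Il27ra, Tnfsf14 and Adgre5, with adjusted p from 0.0521 (Il23r) to 0.12 (Adgre5). The fit that left out asGM1-positive replicate 2 did not call Bspry, Itgae, Klf2, Ccr10, Ccnd2, Cxcr5, Il21, Slamf6, Cd244a, Il27ra, Glmn, Cd40lg, Scart2, Lrrk1, Adgre5, Il23r and Tnfsf14, with adjusted p from 0.0506 (Bspry) to 0.178 (Tnfsf14). For asGM1-positive replicate 3 left out the list was Scart2, Cd244a, Lrrk1 and Bspry, with adjusted p from 0.0534 (Scart2) to 0.0827 (Bspry). Il7r, with an adjusted p of 0.0497, and H2-Aa, with 0.0262, gained a call in that last fit. Without both libraries numbered 1, the genes that lost their call were Fcer1g, Cd79b, Slamf1, Ccr10, Btla, Il21, Siglech, Slamf6, Trgc4, Klf2, Treml2, Ccr4, Ccnd2, Il23r, Cd244a, Lrrk1, Klk1, Bspry, Cxcr5, Glmn, Cd40lg, Il27ra, Adgre5 and Tnfsf14, with adjusted p from 0.055 (Fcer1g) to 0.287 (Tnfsf14). When the 6 Panc02 libraries were fitted alone, Btla, Ccr6, Ccr10, Trgc4, Cd40lg, Treml2, Il23r, Itgae, Il21, Siglech, Scart2, Cxcr5, Tnfsf14, Bspry, Klk1 and Adgre5 were not called, with adjusted p from 0.0596 (Btla) to 0.13 (Adgre5).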

How the data were processed

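Messenger RNA libraries of sorted mouse CD8+ T cells were compared, 3 asGM1-positive and 3 asGM1-negative, with 6 libraries of Flt3L Panc02 tumours in the same fit. The labels' protocols name TRIzol extraction and 2 library kits, TruSeq mRNA and SMARTer ultra low input, without saying how they were combined. Per the submitters' processing notes the tools were HISAT2 and StringTie and the build mm39. Neither versions nor the annotation are stated in them. The authors deposited estimated counts per gene, already whole numbers, so rounding changed nothing. Strand is not stated, so reads of a gene and of one that overlaps it or lies antisense to it cannot be separated. From the steps between low values, 1 fragment is worth about 2.68 counts, so a count of 0 allows up to 3 fragments, that is 8 counts or 0.079 CPM, for counting error only.

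Groups came from the sample titles. edgeR 4.0.16 in R 4.3.3 was run with TMM scaling, filterByExpr by group and 1 quasi-likelihood model of 4 group means over 12 libraries, which share the estimate of the spread. The threshold was a Benjamini-Hochberg adjusted p of 0.05 over all genes tested. Values after ± are standard errors of the log2 fold change. The interaction is the gate effect in Flt3L Panc02 minus that in Panc02 tumours. The code was tested on simulated counts.

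Members and gene lists were chosen with earlier results of these data known, and list counts carry no test. Named genes were all higher genes (up to 15), the 20 lower genes with the largest change at a mean of at least 5 CPM without overlap, gene models and receptor segments left out, from each list its called members with the smallest p (up to 4), and a panel named whether called or not. Others are named as chosen after their values were seen, which also holds for Bach2, Calcrl, Ccl6, Cd69, Cd300c, Cfap126, Cox6a2, Cxcr3, Cxcr4, Foxo1, Gzma, Id3, Pacsin1, Ramp2, Slc16a10, Spib, Trdc and Vipr2. A few single genes are left out of the text. Ly49, Tgtp and T cell receptor segment genes have close paralogs, and how reads were divided is uncertain. Alternatives were DESeq2 1.42.0 size factors and test, upper quartile factors, the filter removed or made stricter (5 CPM in 3 libraries), limma 3.58.1 (voom, quality weights), a fit to the 6 Panc02 libraries, a block for the replicate number, and each library left out in turn. A fit without both Panc02 libraries numbered 1, counts divided by the fragment step, and counts without genes of other cell types were added after seeing the data.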

Additional observations from a re-analysis of the deposited data

Results flagged for a closer look

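For 4 named genes the gate effect differed between Panc02 and Flt3L Panc02 tumours by edgeR's interaction test over all genes. Rnase6 (log2 fold change -2.51 in Panc02 and -4.91 in Flt3L Panc02 tumours) had an adjusted p of 0.02379, and Upb1 (-3.28 and -5.65) one of 0.03342. Cd209d, at 0 in every asGM1-positive Panc02 library, had 0.02379, and no fold is given. Tyrobp had an adjusted p of 0.03342. It overlapped between the gates in Panc02 tumours (-0.10) and was lower in asGM1-positive cells of Flt3L Panc02 tumours (-2.37), at 203, 148 and 174 CPM without and 29.1, 29.2 and 43.4 CPM with asGM1. Of these, Rnase6, Upb1 and Cd209d mark plasmacytoid or other dendritic cells, and Tyrobp is also carried by myeloid and natural killer cells. The part of such cells in these values was not tested.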

How the results depend on the processing

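All 59 called named genes kept their sign in every setting, and 29 of them kept the call. Of 23 genes of the panel that were not called, 6 gained a call in at least 1 setting. Il7r did so under DESeq2, limma-voom, the replicate block and without asGM1-positive replicate 3, and Itga1 under DESeq2, limma-voom and the 6 Panc02 libraries with the block. Havcr2 (those 6 with the block), B4galnt1 and Mki67 (limma-voom) and H2-Aa (without asGM1-positive replicate 3) gained it in 1 setting each. DESeq2 size factors (181 calls) and upper quartile factors (195) gave like counts, and the former moved the median of all genes by 0. The DESeq2 test called 598 genes (135 higher, 463 lower) and limma-voom 831 (286 higher, 545 lower). The 6 Panc02 libraries alone gave 118. Leaving out single Panc02 libraries gave 94 to 226. The interaction gave 40 calls without a filter, 137 with the stricter filter, 862 with DESeq2, 786 with limma-voom, 204 with the replicate block and 1 to 257 with a library left out. Without both Panc02 libraries numbered 1, 107 genes were called (2 higher, 105 lower). Then 4 naive and memory genes, 2 chemokine receptors, 2 cytokines, 2 natural killer type receptors (0 higher), 1 costimulatory gene, 1 B cell marker, 2 CD4 and regulatory T cell markers, 3 gamma delta markers and 1 fibroblast marker were called, and 0 cytokine receptors, checkpoint or cell cycle genes. The cause was not tested. The labels do not say what a replicate number marks. Deviations from the group means correlated between same-numbered Panc02 libraries at 0.284, 0.095 and 0.166. Each Panc02 library correlated best with its own number, a hint from the data and not from the design. In the Flt3L Panc02 tumours the same-numbered correlations were 0.054, 0.104 and 0.022. There asGM1-positive replicate 3 correlated better with asGM1-negative replicate 1 (0.051) than with its own number. The replicate block gave 248 calls (21 higher, 227 lower), and 266 with the 6 libraries alone. With the block Lrrk1 (adjusted p 0.0815), Krt83 (0.0974), Il21 (0.0672) and Cxcr5 (0.06) were not called, nor with the 6 libraries alone were Bspry, Siglech, Klk1, Ccr10, Il21, Btla and Cxcr5 (0.0531 to 0.112). Depth limits genes near 0.079 CPM.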
